A study of Homo sapiens with 6 samples.

Results

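The DMSO 48 h library was compared with the DMSO 24 h library, so that the comparison holds vehicle-treated cells only and its labels differ in time alone. The cells were MDA-MB-231, an established human breast cancer line of the triple-negative kind, grown attached to the dish in DMEM with fetal bovine serum, and DMSO is the solvent of the study's drug. The other 4 libraries of the series came from the same line after 24 h or 48 h in 100 nM or 200 nM PCI-24781, an inhibitor of histone deacetylases (HDACs). Each of the 6 conditions had 1 library. Expression was given as FPKM, the fragments of a gene scaled by transcript length and by the fragments mapped in the library. A gene was compared when its FPKM was at least 1 in either DMSO library, which held for 11490 of the 16623 genes in the files. The difference was log2(FPKM + 1) at 48 h minus log2(FPKM + 1) at 24 h, and a gene was called higher or lower at a change of at least 2-fold, that is, a difference of at least 1 on this scale. Because 1 is added, changes of weakly expressed genes come out too small. No condition had a replicate, so none of the differences carries an error between cultures, no test was made, and each one compares a pair of libraries and not a pair of conditions.

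Several gene programs that respond to the state of a culture are well described. NF-kB is a family of transcription factors that switches on cytokines, chemokines and adhesion molecules, and MDA-MB-231 is known for releasing IL-6 and IL-8. The SREBP factors, held in check by the INSIG proteins, switch on the enzymes of cholesterol and fatty acid synthesis when sterols in the cell are low. Hypoxia-inducible factor (HIF) raises glycolytic enzymes and glucose transporters, and growing cells keep up the genes for ribosome assembly and DNA replication. These are background and were not measured here.

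Most genes differed little between the DMSO libraries. The difference lay within 0.5 for 9813 of the 11490 genes (85.4%), its median was -0.00, and its 5th and 95th percentiles were -0.46 and 0.75. In DMSO 48 h, 286 genes were higher, which is 2.49% of the genes compared, and 15 were lower (0.131%). By any amount, 49.6% of the genes were higher. Of the 286 genes, 13 differed by at least 2 on the log2 scale, 53 by 1.5 to 2 and 220 by 1 to 1.5. The plot of the difference against the mean level shows that the higher genes were found at all levels but most often at low ones.

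**Figure D1:**
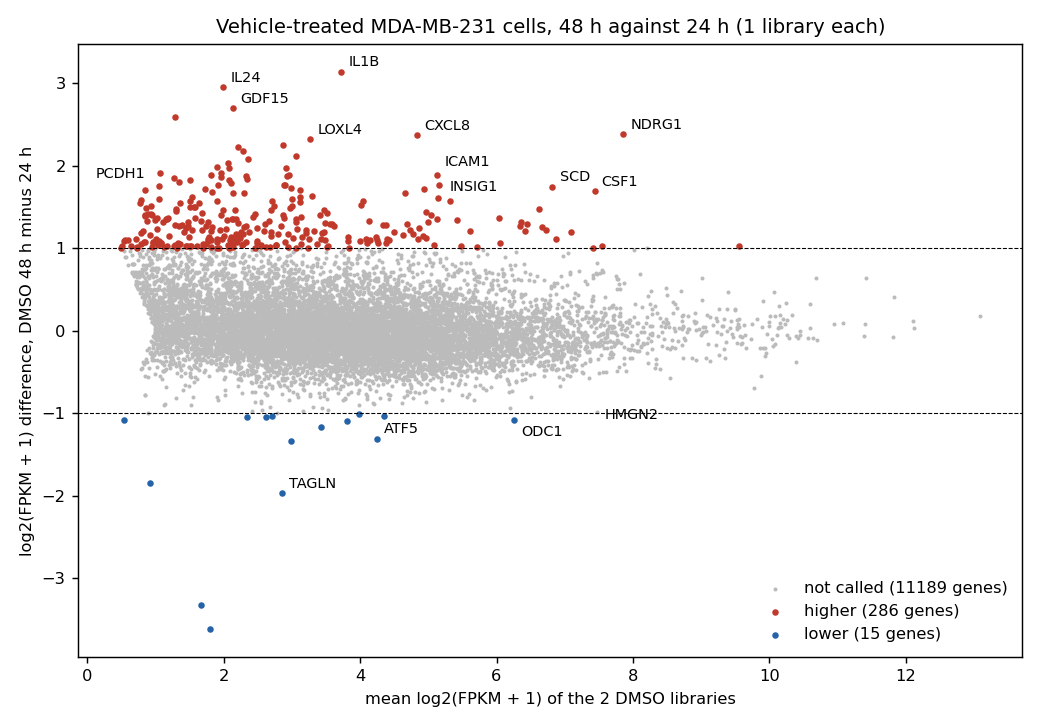
Each point is 1 of the 11490 genes, with the mean log2(FPKM + 1) of both DMSO libraries on the x axis and the log2(FPKM + 1) difference, 48 h minus 24 h, on the y axis. Red points are the 286 higher genes, blue points the 15 lower genes and grey points the 11189 others, and the dashed lines mark a 2-fold change. IL1B, at 3.14, has the largest rise, and NDRG1 and CSF1 combine a rise of over 1.5 with a high level.

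The median FPKM of the 286 genes was 2.11 at 24 h and 6.83 at 48 h, whereas the median of the compared genes was 11.9 in both libraries. Of the 286, 86 had an FPKM under 1 at 24 h and were compared only because of their 48 h value, 8 were listed at 0 at 24 h, and 112 reached an FPKM of 10 in either library. A gene that enters through its 48 h value alone can only come out higher. The filter therefore fixes part of the counts of higher genes in the lists below. Besides cytokine genes, this holds for the called genes TNC, ITGB3, ELF3, CDKN1C, GDF15, EGR1, OAS1, MAP2, PCDH1, PCDH20, TRPV2 and BMF. Nearly all of the 286 genes (285) were protein coding. Their transcripts had a median length of 2412 bases and a median GC content of 54.6%, against 2852 bases and 48.9% over the compared genes, and 37 (12.9%) lay on chromosome 19, against 7.28% of the compared genes. Just inside the threshold stood PALM (5.64 and 12.3), SLC2A12 (1.70 and 4.40) and MYL1, and just outside it LDAF1 (5.20 and 11.4), IER3 (207 and 415) and TNIK (1.01 and 3.01). On the lower side UQCC5 (-1.01), GPATCH4 (-1.03) and METTL1 (-1.04) were just inside, and ATP9B (8.77 and 3.89), H2BC4 (-0.99) and HMGN2 (-0.99) just outside.

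The libraries were of similar depth, inferred from the steps between low values as 15600000 to 18000000 fragments, with 17900000 for DMSO 24 h and 17600000 for DMSO 48 h. An FPKM of about 0.084 in DMSO 24 h and 0.085 in DMSO 48 h is what 3 fragments give on a 2 kb transcript, and 24 of the 284 higher genes with a known transcript length had under 10 inferred fragments at 24 h. All 11 markers fixed for MDA-MB-231 reached an FPKM of 1 in both libraries, with VIM, the gene of the mesenchymal filament vimentin, at 1920 and 2030. Of the 6 luminal genes in the files, 3 reached an FPKM of 1 in both libraries and the 6 summed to 59.8 and 59.3, while the hormone receptor genes ESR1 and PGR were at or below 0.02. Markers of immune cells summed to 1.09 at 24 h and 1.79 at 48 h with CD3E, ITGAM and HBB at 0 in both, and those of endothelial cells to 1.34 and 2.87, of which PECAM1 was 0.38 and 1.52. Those of fibroblasts summed to 2.06 and 2.69, and those of neurons and glia to 19.4 and 21.3, of which MBP was 18.6 and 20.3. In bulk RNA, fewer cells of a kind and less RNA per cell cannot be told apart.

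A pattern has to be given before the gene groups, because it concerns the labels. Between 24 h and 48 h at 100 nM PCI-24781, 42 of the 286 genes rose at least 2-fold and 28 fell at least 2-fold. These were 14.7% and 9.79% of the 286, against 0.949% and 0.827% of all compared genes. In all 28, DMSO 48 h was above 100 nM 48 h and 100 nM 24 h was above DMSO 24 h. These genes were chosen by opposite changes in DMSO and at 100 nM. That choice fixes much of this relation, so nothing is read from the count. Labels were used as given throughout. Culture time in DMSO cannot be told apart here from an exchange of labels between libraries or from a peculiarity of a library, so the values in the PCI-24781 libraries, which share no library with the DMSO comparison, are given beside those in DMSO.

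Several of the largest rises were those of inflammatory mediators. Of 28 genes listed as cytokines and NF-kB targets, 24 were compared, 10 were higher in DMSO 48 h and none was lower. Counting any amount, 21 of the 24 were higher, and the median difference was 0.86, against -0.00 over all compared genes. Of the 10, IL24, IL1A, PTGS2 and CXCL3 had an FPKM under 1 in DMSO 24 h and were compared through their 48 h value alone.

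IL1B, which encodes the cytokine interleukin-1 beta (NCBI Gene ID 3553, hg19 chromosome 2, 113587337 to 113594356), showed the largest difference of all genes, 3.14. Its FPKM was 3.45 in DMSO 24 h and 38.2 in DMSO 48 h, 10.0 and 21.3 at 100 nM, and 7.13 and 35.7 at 200 nM. All 3 of the 48 h libraries were above all 3 of the 24 h libraries. IL6, another secreted cytokine, had values of 2.99 and 16.4 in DMSO, 4.29 and 10.4 at 100 nM and 5.68 and 21.6 at 200 nM. ICAM1, an adhesion molecule that binds leukocytes, had values of 17.2 and 66.3, 20.7 and 57.7, and 19.0 and 82.0. The 24 h and 48 h libraries did not overlap for either gene. CSF1, the growth factor of macrophages, was the most abundant of the list, at 95.5 and 310 in DMSO, 104 and 302 at 100 nM and 96.1 and 338 at 200 nM, again without overlap.

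CXCL8, the gene of the neutrophil chemoattractant IL-8, behaved differently across treatments. In DMSO it was 11.6 and 64.1, and at 200 nM 28.7 and 67.1, but at 100 nM 31.8 at 24 h and 25.4 at 48 h. Hence its 48 h value at 100 nM lay below both PCI-24781 values at 24 h. IL24, a cytokine of the IL-10 family, had an FPKM of 0.43 and 10.1 in DMSO, 4.74 and 2.15 at 100 nM, and 10.6 and 20.5 at 200 nM. IL1A, the companion of IL1B, went from 0.13 to 2.82 in DMSO, with 1.15 and 0.67 at 100 nM and 1.28 and 3.57 at 200 nM. For these 3 genes the 24 h and 48 h libraries overlapped. PTGS2, the inducible cyclooxygenase, was 0.50 and 3.40 in DMSO, 0.73 and 1.01 at 100 nM and 0.55 and 4.59 at 200 nM. PTGES, the prostaglandin E synthase that acts after it and was not on the list, was 30.2 and 62.8, 26.8 and 82.3, and 24.1 and 51.7, so that both enzymes of this route were higher in DMSO 48 h.

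The chemokine genes CXCL2 (3.61 and 10.1 in DMSO) and CXCL3 (0.93 and 2.93) were called, while CXCL1, at 10.4 and 20.6 with a difference of 0.92, was not. Among the factors of the pathway itself, the NF-kB inhibitor NFKBIA differed by 0.73, NFKB2 by 0.71 and RELB by 0.60, while NFKB1 differed by -0.21. BCL3, an NF-kB cofactor outside the list, was 12.3 and 31.3 in DMSO, 11.8 and 39.7 at 100 nM and 10.6 and 26.5 at 200 nM. Of the listed genes, LIF, IL11, CSF3 and CCL5 differed by -0.01, -0.13, 0.03 and 0.06. The list as a whole had a median of 0.24 from 24 h to 48 h at 100 nM and of 0.81 at 200 nM.

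Promoters of called cytokine genes were read for the letters GGNNTTTCC, which occur in many NF-kB sites. Of the 10 called genes 9 have an entry, and the 5 shown are those that hold such letters within 250 bases before the start. IL1B, IL24, IL1A and PTGS2 rose as well and hold none there. Over the whole list 11 of the 19 genes with an entry hold them, the others of the 24 compared having no entry, so that nothing is read from this share. The motif was chosen after the values were seen. It was searched on both strands and was found in 562 of 9493 promoters of compared genes (5.92%). The stretches that follow are from RefSeq on GRCh38.p14, read on the gene's strand, with the matches in capitals. They lie at chr4:73740450-73740514 (+) for CXCL8, chr7:22727100-22727164 (+) for IL6, chr19:10270906-10270970 (+) for ICAM1, chr4:74099212-74099276 (-) for CXCL2 and chr4:74038706-74038770 (-) for CXCL3.
CXCL8: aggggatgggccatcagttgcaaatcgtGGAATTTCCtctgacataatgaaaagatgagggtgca
IL6: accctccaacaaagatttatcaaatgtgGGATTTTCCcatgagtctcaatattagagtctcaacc
ICAM1: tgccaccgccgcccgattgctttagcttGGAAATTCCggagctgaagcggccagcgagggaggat
CXCL2: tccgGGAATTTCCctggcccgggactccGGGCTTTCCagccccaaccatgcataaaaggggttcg
CXCL3: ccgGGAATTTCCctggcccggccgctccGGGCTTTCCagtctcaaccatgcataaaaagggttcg
A match describes the letters and is not a measured site of binding. The match nearest the start lay 91 to 83 bases before it in CXCL8, 72 to 64 in IL6 and 53 to 45 in CXCL2 and CXCL3, whose stretches resemble each other and hold 2 matches each. In ICAM1 it lay 186 to 178 bases before the start, and there the letters stand on the other strand and read GGAAATTCC.

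Genes of cholesterol synthesis were higher in DMSO 48 h as a group. Of the 24 on the list 23 were compared, 5 were called higher, none lower, and 21 were higher by any amount, with a median of 0.72. None of the 23 rested on a low 24 h value, the lowest being HMGCS1 at 6.34. The list's median was 0.50 at 100 nM and 0.76 at 200 nM, with 20 and 21 of the 23 genes higher at 48 h, against 45.4% and 49.8% of all compared genes in the same pairs.

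INSIG1, which retains SREBP in the endoplasmic reticulum and is itself an SREBP target (hg19 chromosome 7, 155089486 to 155101945), was 18.4 and 64.9 in DMSO, 15.4 and 60.8 at 100 nM and 14.1 and 53.8 at 200 nM. Each 48 h library was above every 24 h library, and the 3 differences were 1.77, 1.91 and 1.86. Along the pathway, HMGCS1, the synthase that makes HMG-CoA, was 6.34 and 14.8 in DMSO, 6.05 and 9.99 at 100 nM and 5.54 and 14.7 at 200 nM. MVK, mevalonate kinase, was 6.66 and 15.4 in DMSO, 7.18 and 12.4 at 100 nM and 6.37 and 11.8 at 200 nM. Of the later sterol enzymes, MSMO1, the methylsterol monooxygenase, was 22.2 and 68.1 in DMSO, 27.9 and 47.7 at 100 nM and 26.6 and 68.8 at 200 nM, and DHCR7, a reductase late in the route, was 19.5 and 44.2 in DMSO, 27.96 and 37.2 at 100 nM and 33.2 and 42.3 at 200 nM. INSIG1, HMGCS1, MVK, MSMO1 and DHCR7 thus had every 48 h library above every 24 h library, although only INSIG1 passed 2-fold in all 3 pairs. SREBF2, the factor of the pathway, differed by 0.78, 0.77 and 0.76 in the 3 pairs and was not called. The exceptions were ACAT2 (-0.09 in DMSO) and PMVK (-0.22).

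**Figure D2:**
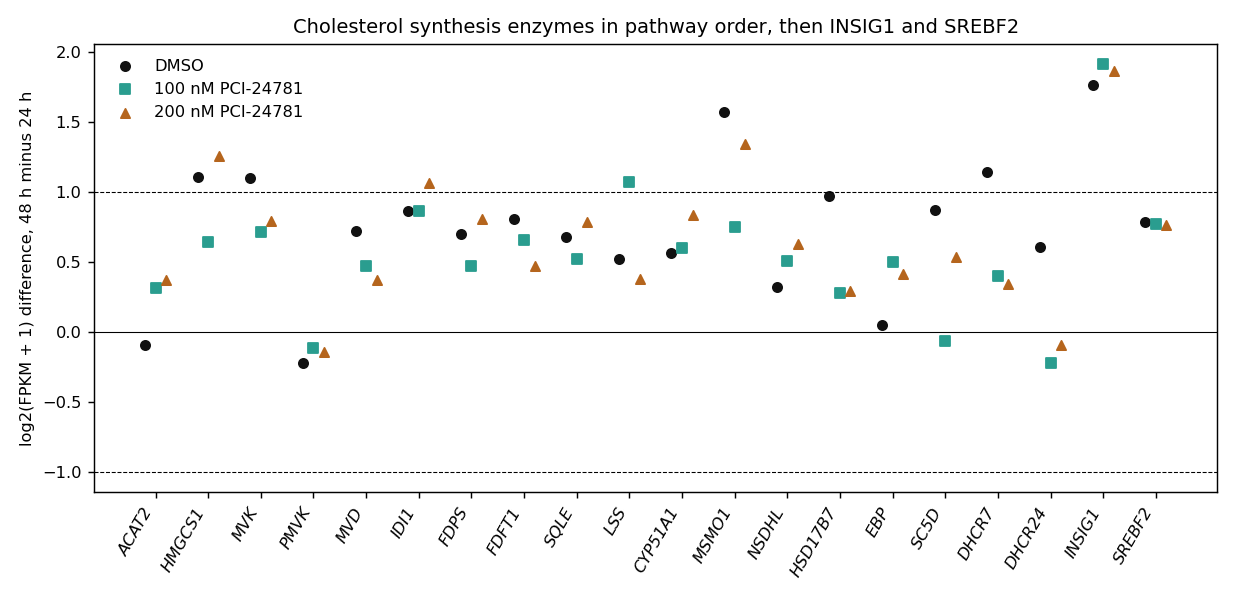
The log2(FPKM + 1) difference, 48 h minus 24 h, is plotted on the y axis for cholesterol synthesis enzymes in pathway order and then INSIG1 and SREBF2 on the x axis, in DMSO (black circles), at 100 nM (green squares) and at 200 nM PCI-24781 (orange triangles). Dashed lines mark a 2-fold change. INSIG1 stands between 1.77 and 1.91 in all 3 pairs, and in DMSO only ACAT2 and PMVK lie below 0.

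The box CCAAT, bound by NF-Y, was looked for on both strands of the same promoters, since NF-Y works beside SREBP at many sterol genes. It was found in 3361 of 9493 promoters (35.4%) and in 14 of the 17 listed sterol genes with an entry. Other letters were searched too, among them TCACNCCAC, found in 1 of the 17 and in 82 of the 9493 (0.864%). The list was set with earlier results known, so nothing is read from these shares. DHCR7 and MVK, called as well, also hold the box and are not shown. INSIG1, MSMO1 and HMGCS1 are shown from RefSeq on GRCh38.p14 at chr7:155297680-155297740 (+), chr4:165327607-165327667 (+) and chr5:43313480-43313540 (-), on the gene's strand and with the match nearest the start in capitals.
INSIG1: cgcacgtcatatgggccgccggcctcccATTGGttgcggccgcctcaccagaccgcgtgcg
MSMO1: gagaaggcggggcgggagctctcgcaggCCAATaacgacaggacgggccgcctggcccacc
HMGCS1: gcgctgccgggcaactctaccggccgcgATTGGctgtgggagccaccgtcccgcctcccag
In INSIG1 and HMGCS1 the letters stand on the other strand and read ATTGG.

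Fatty acid synthesis showed a smaller set of rises. All 11 listed genes were compared, 1 was called higher and 9 were higher by any amount, with a median of 0.50. SCD, the desaturase that makes oleate (hg19 chromosome 10, 102106772 to 102124588), was 60.7 and 206 in DMSO, 56.9 and 224 at 100 nM and 57.5 and 179 at 200 nM, so that the times did not overlap. FASN, the fatty acid synthase, had a difference of 0.98 in DMSO (38.8 and 77.5), and FADS2 one of 0.94 (94.3 and 182). ACLY, at 0.06, and ACACA, at -0.15, are earlier enzymes of the same route. Of the sterol efflux genes driven by LXR, 5 of 7 were compared, none was called and ABCA1 had the largest difference, 0.96 (0.69 and 2.29).

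Glycolytic genes and HIF targets were higher by small amounts. All 30 were compared, 5 were called higher and 29 were higher by any amount, with a median of 0.51. From 24 h to 48 h the median was 0.49 at 100 nM, where all 30 were higher, and 0.27 at 200 nM, where 24 were. The shares over all compared genes were 45.4% and 49.8%. NDRG1, a gene induced by hypoxia and by growth arrest, was the second most abundant of the 286 genes in DMSO 48 h, with an FPKM of 101 and 528 in DMSO, 172 and 555 at 100 nM and 343 and 688 at 200 nM. Every 48 h library was above every 24 h library. ALDOC, a form of aldolase, was 3.49 and 10.9 in DMSO, 3.47 and 18.8 at 100 nM and 6.78 and 11.2 at 200 nM, also without overlap. PFKFB4, which sets the level of the activator of phosphofructokinase, was 5.44 and 12.9 in DMSO, 5.11 and 14.4 at 100 nM and 5.6 and 12.04 at 200 nM. SLC2A3, a glucose transporter, was 13.4 and 29.1 in DMSO, and CA12, a carbonic anhydrase, 6.09 and 16.6. Of the most abundant enzymes, GAPDH differed by -0.07 (2743 and 2617), PKM by 0.14 (858 and 944), LDHA by 0.19 (1060 and 1210) and ENO1 by 0.47 (912 and 1263). VEGFA, the vascular growth factor, was not called, at 0.88 (16.9 and 31.9). TXNIP, which restrains glucose uptake, rose from 68.2 to 161 in DMSO and was 67.2 and 217 at 100 nM and 132 and 234 at 200 nM. It was the only gene called of the 7 compared of 8 listed TXNIP and arrestin genes.

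Most integrin and matrix genes were higher by any amount in DMSO 48 h, and 4 of each list were called. Of 16 integrins 12 were compared, 4 were called higher and 11 were higher by any amount, with a median of 0.71 in DMSO, 0.05 at 100 nM and 0.40 at 200 nM. At 100 nM 8 of the 12 were higher at 48 h and at 200 nM 11, against 45.4% and 49.8% of all compared genes. The difference between the pairs was not tested. ITGB5 was the most abundant of the 4, with 31.1 and 73.0 in DMSO, 43.7 and 57.1 at 100 nM and 36.5 and 68.9 at 200 nM, and its 24 h and 48 h libraries did not overlap. ITGB3, which pairs with ITGAV as a vitronectin receptor, was 0.98 and 5.34 in DMSO, 2.86 and 2.41 at 100 nM and 4.62 and 10.4 at 200 nM, and overlapped. ITGA1 (1.29) and ITGB4 (1.09) were the others. ITGB1, the common beta chain, differed by 0.13 at a level of 1163 and 1276.

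Of 25 matrix genes 21 were compared, 4 were called higher and all 21 were higher by any amount, with a median of 0.44. TNC, 1 of the 4, had an FPKM under 1 in DMSO 24 h, so its direction was fixed by the filter. From 24 h to 48 h the list's median was -0.01 at 100 nM, where 10 of the 21 were higher, and 0.19 at 200 nM, where 17 were. Of all compared genes, 45.4% and 49.8% were higher in these pairs. FN1, fibronectin, was 39.7 and 104 in DMSO, 52.9 and 92.4 at 100 nM and 55.2 and 120 at 200 nM. LOX, the enzyme that cross-links collagen, was 15.6 and 36.1, 16.4 and 33.6, and 11.2 and 36.7. For both genes all 48 h libraries were above all 24 h libraries. TNC, tenascin C, was 0.51 and 4.36 in DMSO, 4.10 and 1.09 at 100 nM and 5.20 and 7.63 at 200 nM, so that DMSO 24 h and 100 nM 48 h were the low libraries. LOXL4, a relative of LOX outside the list, had a difference of 2.32 in DMSO (3.32 and 20.6), with 12.5 and 10.4 at 100 nM and 21.2 and 47.5 at 200 nM.

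TGFBI, a matrix protein induced by TGF-beta, was 1.14 and 9.06 in DMSO, 5.57 and 4.34 at 100 nM and 8.79 and 16.4 at 200 nM. On its list of TGF-beta and BMP genes 15 of 18 were compared and TGFBI and BMP2 (1.32 and 4.37 in DMSO) were called, with 13 higher by any amount and a median of 0.34. The inhibitor of differentiation ID3 had the lowest value there, -0.62. From 24 h to 48 h the median of the TGF-beta and BMP list was -0.10 at 100 nM, where 10 of the 15 were lower. At 200 nM it was -0.12, and 9 were lower. In the same pairs 6248 and 5730 of all 11490 compared genes were lower, so nothing is read from the counts of this list. Of 17 targets of YAP and TEAD only CCN2 was called, with 88.8 and 205 in DMSO, 240 and 80.9 at 100 nM and 353 and 295 at 200 nM. The median of that list was 0.06 in DMSO, and 10 of its 17 genes were higher by any amount. With PCI-24781 its median from 24 h to 48 h was -0.44 at 100 nM, where 13 of the 17 were lower. At 200 nM it was -0.26, and 14 were lower.

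Epithelial genes gave 19 compared of 25, 3 called higher and 14 higher by any amount, with a median of 0.46 in DMSO, -0.13 at 100 nM and 0.04 at 200 nM. JUP, the junction protein plakoglobin, was 3.02 and 13.9 in DMSO, 9.27 and 12.9 at 100 nM and 17.8 and 18.4 at 200 nM. CLDN1, a claudin of tight junctions, was 4.6 and 16.4 in DMSO, 19.2 and 4.81 at 100 nM and 24.7 and 31.0 at 200 nM. ELF3, an epithelial transcription factor, was low throughout, at 0.35 and 1.81, 0.40 and 2.36, and 0.58 and 2.26, yet separated the 24 h from the 48 h libraries. The keratins of simple epithelium KRT8 and KRT18 differed by -0.04 and -0.12, and EPCAM by -0.51. Of 15 mesenchymal genes 10 were compared, FN1 alone was called and the median was 0.07, with VIM at 0.08.

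**Figure D3:**
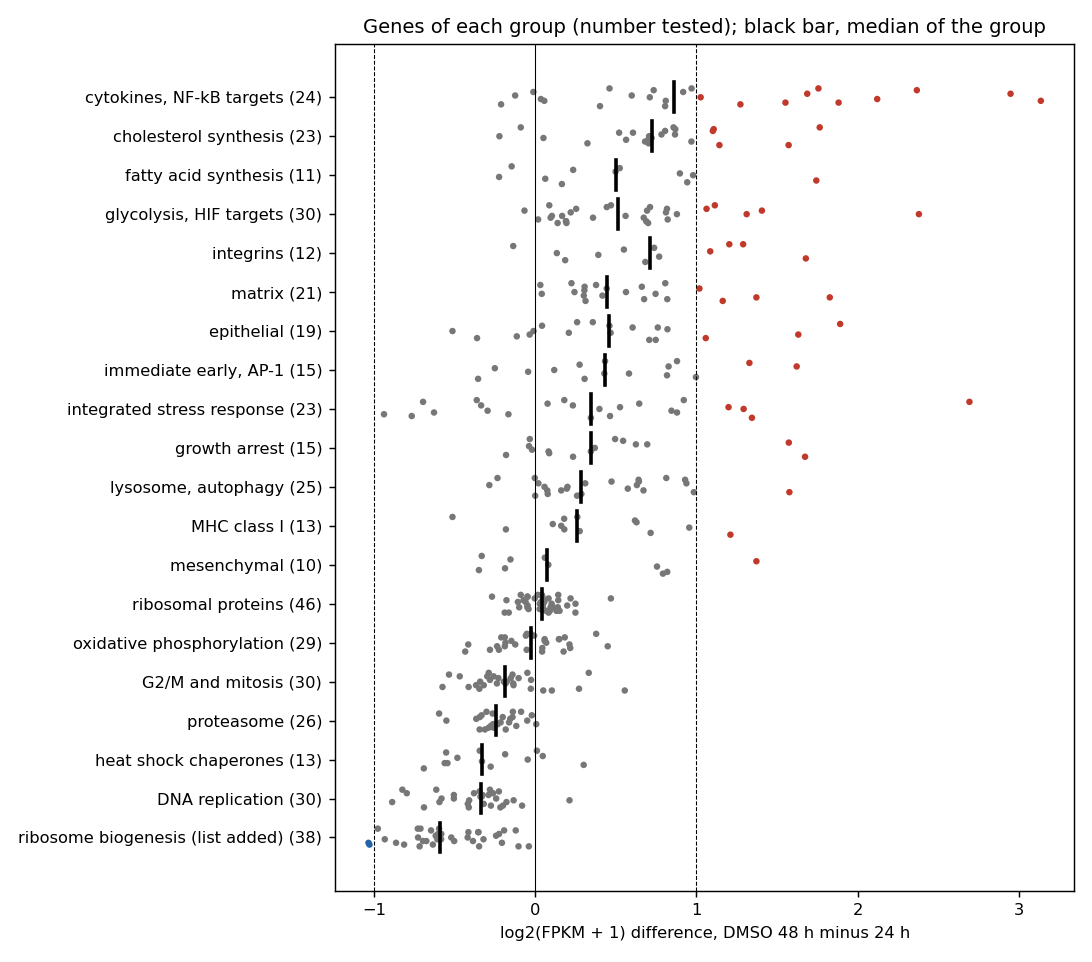
Each point is a compared gene of the list named on the y axis (number compared in brackets), placed on the x axis by its log2(FPKM + 1) difference, DMSO 48 h minus 24 h, and the black bar is the list's median. Red points are called higher, blue points lower, and dashed lines mark a 2-fold change. Among the lists plotted, medians run from 0.86 for cytokines to -0.59 for ribosome biogenesis, a list added after the values were seen, and 6 of them have most of their genes below 0.

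Growth arrest and stress genes were mixed. Of 17 CDK inhibitors and related genes 15 were compared and 2 called higher, and 11 were higher by any amount, with a median of 0.34. CDKN1A, the gene of the cell cycle inhibitor p21, was 13.2 and 44.3 in DMSO, 30.6 and 25.8 at 100 nM and 48.8 and 52.9 at 200 nM. Hence DMSO 24 h stood below the other 5 libraries, while the 100 nM pair did not rise. CDKN1C, which encodes p57, was 0.65 and 3.91, 1.48 and 3.41, and 2.72 and 4.23, and there the 48 h libraries were all above the 24 h libraries. MDM2, a p53 target like CDKN1A, differed by -0.04 in DMSO.

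The integrated stress response list, the genes that follow ATF4 when translation is slowed, held genes that lay above and below 0. Of its 28 genes 23 were compared and 4 were called higher, with 15 higher and 8 lower by any amount and a median of 0.34. GDF15, a secreted stress cytokine, was 0.73 and 10.2 in DMSO, 1.42 and 6.84 at 100 nM and 3.29 and 10.8 at 200 nM. DDIT4, an inhibitor of mTORC1, was 54.7 and 135 in DMSO, 49.3 and 170 at 100 nM and 75.3 and 122 at 200 nM. CEBPB, a transcription factor, was 25.95 and 67.4, 27.97 and 65.3, and 36.7 and 67.0. NUPR1, a small stress protein, was 2.14 and 6.21, 0.59 and 4.51, and 0.40 and 2.35. In all 4 of these the 24 h and 48 h libraries did not overlap. None of its amino acid transporters and enzymes was called. The lowest of them were SLC7A5, the leucine importer, at -0.94, its partner SLC3A2 at -0.77, the cystine importer SLC7A11 at -0.70 and the serine enzyme PSAT1 at -0.63. Others lay above 0, with the transporters SLC1A4 at 0.64 and SLC6A9 at 0.40 and the enzymes PCK2 at 0.18 and CTH at 0.08. SLC7A5 was 100.1 and 51.7 in DMSO, 107 and 57.8 at 100 nM and 183 and 64.5 at 200 nM, so its 48 h libraries were all below its 24 h libraries.

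Of the 15 genes lower in DMSO 48 h, 4 were listed at 0 at 48 h (LOC102724594, SERF1A, FMC1-LUC7L2 and TRIM74). These, and SULT1A4, share sequence with near-identical copies or are read-through genes, so that reads can be assigned to the copy or the partner instead. SULT1A4 was 7.83 and 3.27 in DMSO, while its copy SULT1A3, called higher, was 0.00 and 5.01, and both are uncertain. The clearest fall was that of TAGLN, the gene of the actin-binding protein transgelin, at -1.97. It was 13.3 and 2.66 in DMSO, 6.05 and 5.47 at 100 nM and 7.22 and 2.36 at 200 nM, and all 48 h libraries were below all 24 h libraries.

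ODC1, which encodes ornithine decarboxylase, the entry enzyme of polyamine synthesis, was the most abundant of the 15, at 110 and 51.6 in DMSO, 83.9 and 49.2 at 100 nM and 118 and 42.8 at 200 nM. CYP1B1, a cytochrome P450 induced through the aryl hydrocarbon receptor, was 19.5 and 8.56, 15.4 and 12.4, and 16.7 and 9.57. Neither gene had a 48 h library that reached a 24 h library. ATF5, a factor related to ATF4, was 28.8 and 11 in DMSO, 9.78 and 15.4 at 100 nM and 4.01 and 4.87 at 200 nM, so it was highest in DMSO 24 h and not lower at 48 h with PCI-24781. DHRS11, a short-chain dehydrogenase, was 11.7 and 4.0 in DMSO, with 5.87 and 5.74 at 100 nM and 3.30 and 3.72 at 200 nM. SLC5A6, a vitamin transporter, was 15.1 and 6.17, 7.71 and 6.36, and 4.19 and 4.63. These 3 genes were alike in standing highest in DMSO 24 h. SPHK1, a sphingosine kinase, was 6.30 and 2.54 in DMSO, 3.80 and 4.30 at 100 nM and 3.43 and 2.65 at 200 nM.

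METTL1 (8.33 and 3.55 in DMSO), which methylates tRNA, and GPATCH4 (28.1 and 13.3), a nucleolar protein, led to a list of 38 genes of ribosome and tRNA assembly that was added after these values were seen and is not independent of them. All 38 were lower in DMSO 48 h by any amount, and METTL1 and GPATCH4 were the 2 called, with a median of -0.59. From 24 h to 48 h, 35 of the 38 were lower at 100 nM (median -0.42) and 33 at 200 nM (median -0.27). Among all 11490 compared genes, 6248 and 5730 were lower in these pairs. NOP56, a core protein of box C/D snoRNPs, was 95.9 and 57.5 in DMSO, 94.1 and 54.7 at 100 nM and 83.0 and 56.4 at 200 nM, with no overlap between times. NCL, nucleolin, differed by -0.39 and FBL, fibrillarin, by -0.04. The 46 genes of cytosolic ribosomal proteins, by contrast, had a median of 0.04, with none called and 31 higher by any amount.

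None of the 30 DNA replication genes was called, but 29 were lower by any amount, with a median of -0.34. CCNE2 (24.1 and 12.6), cyclin E2, had the lowest value, -0.89, followed by MCM10 (-0.83), RRM2 (-0.80) and MCM4 (-0.69), and CDT1, at 0.21, was the exception. The list's median was -0.23 at 100 nM, where 24 of 30 were lower, and 0.20 at 200 nM, where 24 of 30 were higher. Among all 11490 compared genes, 6248 were lower at 100 nM and 5726 were higher at 200 nM. TYMS, thymidylate synthase, was 153 and 102 in DMSO and 38.4 and 79.1 at 200 nM. In the G2 and mitosis list, 25 of 30 were lower by any amount and none was called, with a median of -0.19 and KIF23, a mitotic kinesin, lowest at -0.58.

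Chaperones and the proteasome also lay slightly below 0. Of 13 heat shock genes none was called and 10 were lower, with a median of -0.33, and HSP90AA1, an HSP90 gene, was 1110 and 687 in DMSO, 1184 and 596 at 100 nM and 1297 and 705 at 200 nM. This gene separated the times in every treatment at a difference that stayed under 2-fold in DMSO (-0.69). Of 26 proteasome subunits 25 were lower and none called, with a median of -0.25. Oxidative phosphorylation genes had a median of -0.03, with 13 of the 29 compared higher, and the 19 endoplasmic reticulum chaperones one of 0.08 and no call.

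From the genes that the study names, 22 were taken, which is not every gene it names, and 14 of these were compared. JUP and FN1, described above, were called. PCDH1, which the study also names and the 22 do not hold, was called too and is described with its libraries further on. The next differences among the 14 were those of SYT12 at 0.93 (0.31 and 1.5), SYTL2 at 0.81 (2.06 and 4.35) and the metalloproteinase MMP15 at 0.64 (0.50 and 1.33), none of which was called. The matrix metalloproteinase MMP1 was 9.44 and 14.1 in DMSO, 14.03 and 5.82 at 100 nM and 8.16 and 14.9 at 200 nM, and RGS2, a regulator of G protein signalling, was 4.70 and 6.75, 8.23 and 5.08, and 7.62 and 11.2. Neither was called, with differences of 0.53 and 0.44 in DMSO. The calcium pump genes ATP2B1 and ATP2B4 differed by 0.24 and 0.50, GNAQ by -0.26 and PLCB3 by -0.14. MMP3, SYT1 and SYT7, among others, stayed under an FPKM of 1 in both DMSO libraries and were not compared. Over the calcium signalling list, 20 of 23 genes were compared and CALB2, which encodes calretinin, was called, at 1.12 and 7.34 in DMSO, 7.52 and 3.53 at 100 nM and 11.3 and 14.5 at 200 nM. All 11 listed HDAC genes were compared, with a median of 0.03. HDAC5 was called, at 4.42 and 13.1 in DMSO, 6.29 and 13.2 at 100 nM and 9.76 and 14.3 at 200 nM. It is not among the HDACs that the paper lists as inhibited by PCI-24781.

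The PCI-24781 libraries were then used to see how the 286 genes stood in pairs that took no part in their choice. At 100 nM, 156 of the 286 (54.5%) were higher at 48 h than at 24 h by any amount, against 45.4% of the compared genes, and their median difference was 0.09. At 200 nM, 227 (79.4%) were higher, against 49.8%, with a median of 0.38. At least 2-fold higher were 42 at 100 nM (14.7%, against 0.949%) and 41 at 200 nM (14.3%, against 0.722%). At least 2-fold lower were 28 at 100 nM (9.79%, against 0.827%) and 1 at 200 nM (0.35%, against 0.122%), the read-through gene TGIF2-RAB5IF. At 100 nM the shares in both directions were thus above those of the compared genes. The 286 genes were lower in level than the compared genes, and the part of level in these shares was not tested.

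Counting directions of any size, 140 of the 286 were higher in both PCI-24781 pairs, 87 were lower at 100 nM and higher at 200 nM, 43 were lower in both, and 16 were higher at 100 nM and lower at 200 nM. This split was not counted over all compared genes, so nothing is read from it. Both 48 h libraries with PCI-24781 were above both 24 h libraries for 108 of the 286 (37.8%, against 19.6% of the compared genes), and below for 3 (1.05%, against 23.8%). Of the 15 lower genes, 11 were lower at 100 nM and 9 at 200 nM. Among all 11490 compared genes, 6248 were lower at 100 nM and 5730 at 200 nM. The 15 are few and hold the copies and read-through genes named above, so nothing is read from these counts. Both 48 h libraries were below both 24 h libraries for 7 of the 15 (TAGLN, CYP1B1, ODC1, TRIM74, METTL1, GPATCH4 and UQCC5), against 23.8% of the compared genes. Across the 11490 genes, the DMSO difference had a Pearson correlation of 0.19 with the difference at 100 nM and of 0.31 with that at 200 nM, and the 2 PCI-24781 pairs one of 0.40 with each other. Genes of 1 library are not independent of each other, so these values describe the libraries and have no p.

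**Figure D4:**
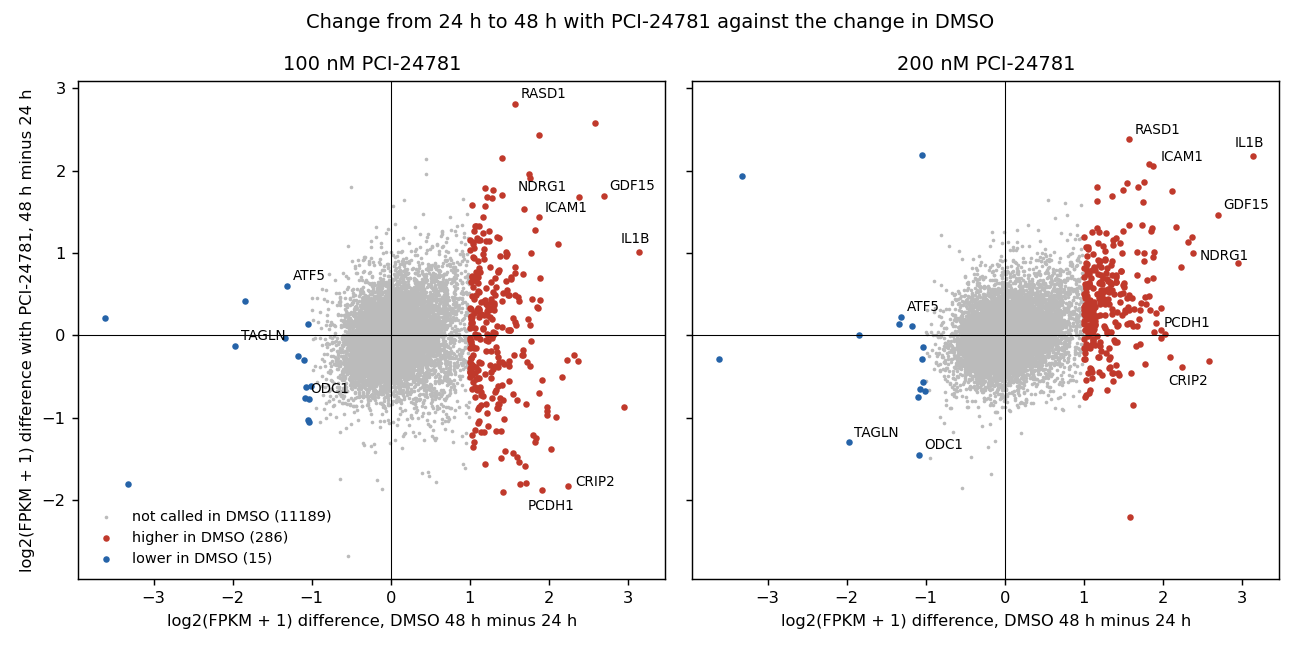
Each point is a compared gene, with its log2(FPKM + 1) difference between 48 h and 24 h in DMSO on the x axis and the same difference at 100 nM (left) or 200 nM PCI-24781 (right) on the y axis. Red marks the 286 genes higher in DMSO 48 h, blue the 15 lower ones and grey the rest. At 100 nM the red points spread on both sides of 0, with 156 above and 130 below, and at 200 nM 227 lie above and 59 below.

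Past 2-fold in all 3 pairs were 21 genes, all higher at 48 h, and 0 were lower in all 3. They were IL1B, GDF15, NDRG1, IL6, ICAM1, ANGPTL2, INSIG1, SCD, CSF1, RASD1, VSTM2L, BHLHE40, CFB, BCL3, SPAG4, NUPR1, GGT5, SLC37A2, ELF3, PTGES and SLC16A6. Their median FPKM was 5.66 in DMSO 24 h and 17.4 in DMSO 48 h, and 16 reached 10 in either. RASD1, a small GTPase induced by glucocorticoids, had the largest differences with PCI-24781, with 2.77 and 10.2 in DMSO, 1.26 and 14.9 at 100 nM and 1.36 and 11.3 at 200 nM. BHLHE40, a circadian and hypoxia-responsive repressor, was 19.2 and 52.5, 19.2 and 64.4, and 20.1 and 46.7. CFB, complement factor B, was 3.59 and 10.8, 4.39 and 11.3, and 5.53 and 13.6. ANGPTL2, a secreted angiopoietin-like protein, was 1.24 and 6.94, 1.85 and 5.92, and 1.71 and 10.48. In all 4 genes every 48 h library was above every 24 h library. DEPP1, a FOXO target, missed the set only at 200 nM, with differences of 1.88, 2.43 and 0.96.

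The 28 genes that were higher in DMSO 48 h and fell at 100 nM were lower in level, with a median FPKM of 0.525 in DMSO 24 h and 3.42 in DMSO 48 h. PCDH1, a protocadherin of cell contacts (hg19 chromosome 5, 141232676 to 141257975), was 0.08 and 3.08 in DMSO, 3.21 and 0.15 at 100 nM and 10.2 and 12.5 at 200 nM. CRIP2, a LIM domain protein, was 2.37 and 15.02 in DMSO, 18.6 and 4.55 at 100 nM and 39.6 and 30.1 at 200 nM. PRSS3, a trypsin gene, was 1.06 and 7.41, 7.88 and 2.43, and 10.95 and 11.1. In these 3 genes DMSO 24 h was the lowest library and 100 nM 48 h the next, and both 200 nM libraries were the highest.

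From the lowest to the highest, DMSO 24 h, 100 nM 48 h, DMSO 48 h, 100 nM 24 h and then both 200 nM libraries was the order in 20 of the 28 genes. The choice of the 28 put DMSO 24 h below DMSO 48 h and 100 nM 48 h below 100 nM 24 h. Part of the order is therefore built in, and it was not counted over the other compared genes. AREG, which encodes the EGF receptor ligand amphiregulin, was 1.69 and 8.66 in DMSO, 9.5 and 3.42 at 100 nM and 18.8 and 23.4 at 200 nM. CDA, cytidine deaminase, was 15.9 and 54.7, 67.7 and 18.9, and 67.7 and 83.9, and CPA4, a carboxypeptidase, 3.96 and 14.2, 22.1 and 7.0, and 72.0 and 39.6. In these 3 genes the order held. It did not in CCN2, EFEMP1, SLAMF7 and TNFRSF11B, where 100 nM 48 h was below DMSO 24 h, in TNC, KRT15 and DPP4, where DMSO 48 h was above 100 nM 24 h, or in CYFIP2, where 100 nM 24 h (3.82) was above 200 nM 48 h (3.73). All 28 had a 200 nM 24 h value above that of DMSO 24 h, and 15 were higher at 48 h than at 24 h at 200 nM, with a median difference of 0.08. The other members were CCN2, TNC, CLDN1, KRT15, EFEMP1, SLAMF7, AIF1L, F2RL2, DNAAF3, CYFIP2, TNFRSF11B, AFAP1L2, CGN, SERPINI1, VSNL1, SCG2, ADGRB2, DMKN, DPP4, PPM1J, FABP4 and FXYD1. The difference between the pairs was not tested.

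**Figure D5:**
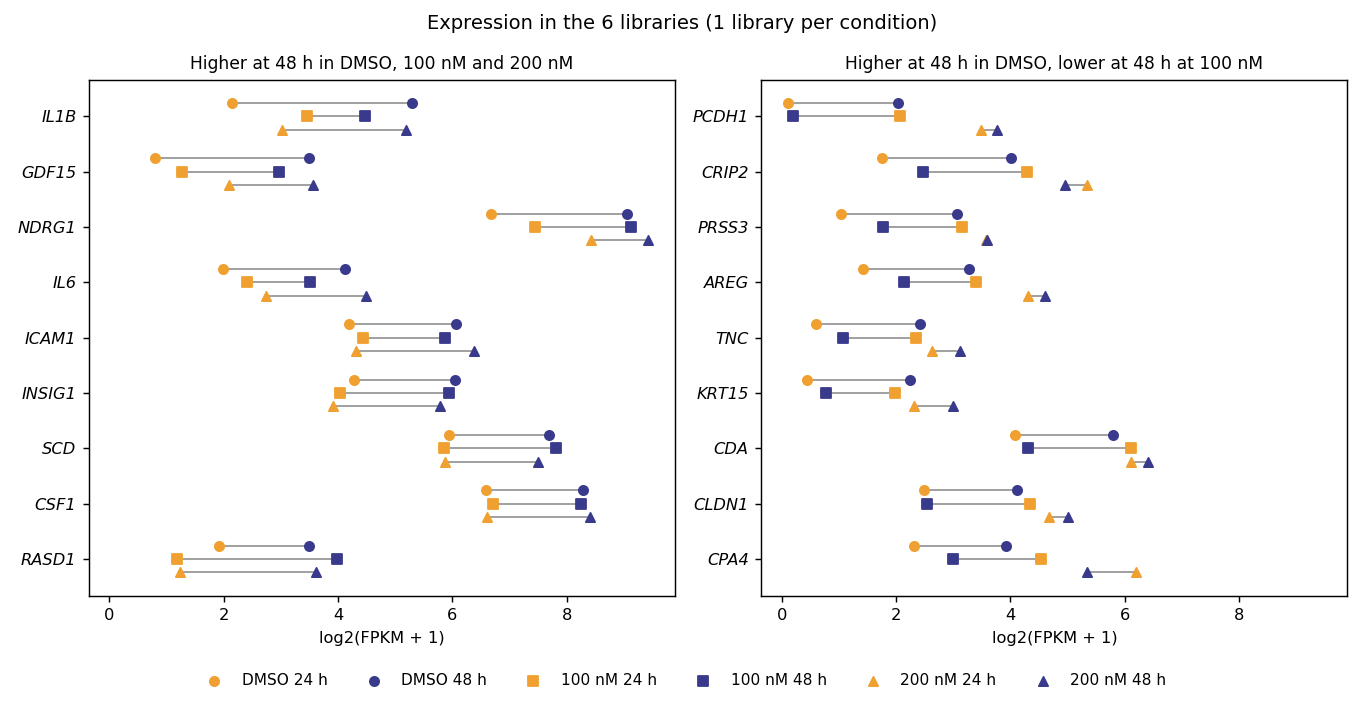
Log2(FPKM + 1) on the x axis is shown for 9 genes at least 2-fold higher at 48 h in all 3 pairs (left) and for 9 genes higher in DMSO 48 h and at least 2-fold lower at 48 h at 100 nM (right). Orange marks 24 h and blue 48 h, circles are DMSO, squares 100 nM and triangles 200 nM, and grey lines join the times of a treatment. On the left every line runs from orange up to blue, and on the right the DMSO and 100 nM lines run in opposite directions over nearly the same range, as for PCDH1 with 0.08 and 3.08 in DMSO and 3.21 and 0.15 at 100 nM.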

How the data were processed

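Total RNA of MDA-MB-231 cells was sequenced, with 1 library for each of 6 conditions. The deposited values are FPKM per gene, made by the authors and rounded to 2 decimals. The submitters' processing notes name Bowtie2, RSEM and hg19, without versions. NCBI Gene IDs were matched to symbols in the GRCh38.p14 RefSeq table for 16585 of the 16623 genes. Coordinates of genes are hg19, and promoter stretches are GRCh38.p14, where 9493 of the 11490 compared genes and 204 of the 286 higher genes had an entry, too few for shares over the higher genes.

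From the FPKM, differences of log2(FPKM + 1) were calculated for DMSO 48 h against DMSO 24 h and, over the same genes, for each dose of PCI-24781. The files hold no counts, so no count test was used, and with 1 library per condition no p-value was calculated. An approximate depth was read from the spacing of the lowest FPKM values among single-transcript genes of 500 to 1500 bases (GENCODE 29). Simulated data were used to test the calling. The 37 gene lists, and the genes chosen, were set with earlier results of these data known, and 1 list was added after the values were seen.

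The genes named are the 25 largest rises and 15 largest falls, the 15 largest of each among genes with an FPKM of at least 10, the genes past 2-fold in all 3 pairs, the called members of each list with its 4 largest differences, the genes the study names, and the 3 nearest to the threshold on each side. Some genes covered by this rule are counted in their lists but not reported by name here. The text gives a part of the others and, chosen after their values were seen, further members of a list or of the opposed set. Alternatives were other pseudocounts, filters, scalings and thresholds. The tools were Python 3.11.15 with pandas 2.3.3, numpy 2.4.6 and, for plots, matplotlib 3.10.9.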

Additional observations from a re-analysis of the deposited data

Results flagged for a closer look

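In 28 genes the DMSO 48 h library was at least 2-fold above DMSO 24 h while the 100 nM 48 h library was at least 2-fold below 100 nM 24 h, so that the only library of each time moved in opposite directions under the 2 treatments. Among the 25 largest rises in DMSO these were CRIP2, with a difference of 2.25 in DMSO and -1.82 at 100 nM, PRSS3, with 2.03 and -1.37, and PCDH1, with 1.92 and -1.87. The difference between treatments was not tested, since each condition has 1 library. A real difference between treatments, an exchange of labels and a property of a library cannot be told apart.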

How the results depend on the processing

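No paired analysis was possible because the DMSO comparison has 1 library on each side and comes from no test, and a fit of time across the 3 treatments, which was not made, asks about another contrast. Counts were taken as changed beyond 1.5 times and medians beyond 0.1. The number of higher genes (286) was 564 with a pseudocount of 0.1, 589 with 0.01, 435 after rescaling to TPM, which enlarges the values against the pseudocount, 975 at 1.5-fold and 112 among genes reaching 10 FPKM in either library, and the number of lower genes (15) was 42, 48, 33, 223 and 9. The last filter, and leaving out genes listed at 0, were chosen after the data were seen. With pseudocounts of 0.1 and 0.01 and at 1.5-fold, the higher genes that were also higher at 48 h by any amount numbered 296, 309 and 567 at 100 nM and 415, 433 and 714 at 200 nM. Those past the fold upwards numbered 94, 103 and 203 at 100 nM, 86, 93 and 199 at 200 nM (62 as TPM), and 44, 48 and 93 in all 3 pairs, and those past it downwards at 100 nM 82, 90 and 122 (54 as TPM, 11 among genes at 1 FPKM or more in both DMSO libraries). The median at 100 nM of the higher genes was 0.28 under that same filter on both, and at 200 nM 0.22 at 1.5-fold. With pseudocounts of 0.1 and 0.01 the list medians were 0.68 and 0.69 for glycolysis, 0.46 and 0.48 for the integrated stress response, 1.01 and 1.03 for cytokines, 0.59 and 0.60 for matrix and 0.56 and 0.57 for epithelial genes. Without a filter they were 0.23 for growth arrest, 0.20 for the integrated stress response, 0.48 for integrins, 0.15 for metalloproteinases and 0.26 for epithelial genes, and with the filter on both libraries -0.05 for mesenchymal and -0.12 for histone genes. Median-of-ratios scaling moved the median of all genes to -0.04. Of the 224 named genes, 23 newly passed 2-fold with each smaller pseudocount, 19 as TPM and 4 with median-of-ratios scaling, which also lost 6, and none reversed under these scalings and pseudocounts. At the inferred depth, 11 of 284 higher genes had under 3 fragments at 24 h, so the size of their rise could not be measured.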

Other observations

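Interferon and antigen presentation genes gave few calls in DMSO 48 h. Of 30 interferon-stimulated genes 28 were compared and OAS1 (0.39 and 2.55) and IFI6 (4.30 and 12.2) were higher, with 17 of 28 higher by any amount and a median of 0.11. Of 13 MHC class I genes HLA-B, which presents peptides to T cells, was higher (55.4 and 129), with 11 of 13 higher by any amount and a median of 0.26. HLA genes are highly similar and variable, so the assignment of their reads is uncertain. Of 19 immediate early genes 15 were compared and EGR1 (0.66 and 4.11) and JUNB (10.0 and 26.7) were higher, with a median of 0.43, and none of 13 MAPK feedback genes was called, though 12 were higher by any amount (median 0.28). Of 26 lysosome and autophagy genes 25 were compared and GABARAPL1, an autophagosome protein, was higher (8.56 and 27.5), with 21 higher by any amount and a median of 0.29, and NPC2 and NPC1, which move cholesterol out of lysosomes, at 0.98 and 0.93.

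Of 18 metalloproteinase and plasminogen genes 10 were compared and PLAT, tissue plasminogen activator, was higher (11.6 and 26.8, list median 0.39). Of 9 metallothioneins and partners 5 were compared and MT1X was higher (51.0 and 129). Of 17 NRF2 targets 14 were compared and none was called (median 0.01), with HMOX1, haem oxygenase, at 0.96. Of 26 neuronal and exocytosis genes 9 were compared, and MAP2 (0.11 and 1.94) and RAB3A (2.03 and 5.84) were higher. Of 10 protocadherins 3 were compared, and PCDH1 and PCDH20 (0.37 and 1.97) were higher. Of 14 ion channel genes 7 were compared, and TRPV2 (0.78 and 3.22) was higher. All 12 tubulins were compared and TUBA1A was higher (64.4 and 155), with a median of -0.10. Of 15 BCL2 family genes 12 were compared and BMF, a pro-death member, was higher (0.23 and 1.59, list median 0.04), and of 16 histone genes 15 were compared and none was called (median -0.22). IGFBP4, which binds insulin-like growth factors, was the most abundant of the 286 genes, at 527 and 1076 in DMSO, 677 and 1115 at 100 nM and 646 and 1144 at 200 nM.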
